A study of Mus musculus with 2 samples.

Results

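In MC3T3-E1 cells, 5766 regions with RUNX2 peaks in both replicates lay inside the bodies of protein-coding genes, away from the gene ends. Overlapping peaks (1 bp or more) of the replicates were joined into regions, and those with peaks of both replicates are called shared regions. The regions described here are the shared regions on chromosomes 1 to 19 whose position, the midpoint of the widest replicate 1 peak, fell within the RefSeq span of a protein-coding gene and over 1 kb from the end of every annotated gene. They made up 32.3% (95% Wilson interval 31.65 to 33.02) of the 17836 shared regions on these chromosomes, and 18133 shared regions were found in all. Of the others on chromosomes 1 to 19, 6794 (38.1%) lay within 1 kb of a gene end, 4313 (24.2%) lay outside genes and 963 (5.4%) lay in the bodies of genes that code for no protein.

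The data come from CUT&Tag, in which an antibody guides the transposase Tn5 to a chromatin protein and the enzyme tags the DNA around it for sequencing. MC3T3-E1 is an established mouse line of embryonic osteoblast precursors, and the cells were untreated. There was 1 group with 2 replicate libraries and no control library, and since no label tells if separate cultures were used, their spread may be technical only. The deposited lists give the position and width of 26853 peaks in replicate 1 and 27287 in replicate 2, without heights. Depth is therefore unknown, and intervals cover counting error only.

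RUNX2 is the Runt-domain transcription factor required for osteoblast differentiation. With its partner CBFB it binds a short core sequence, often next to sites of AP-1, the Fos and Jun dimer, and of TEAD, the partner of YAP and TAZ. Gene bodies can hold enhancers in introns and alternative promoters, which start shorter transcripts of the same gene. A region inside a gene may also act on a neighbouring gene, and position alone does not show its target.

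Some of these regions covered an annotated alternative start, and there the DNA at the start can be read from the RefSeq promoter windows of GRCm38.p6. Each window runs from 250 bases before to 50 bases after a start and is written on the strand of its gene. A window counts as under a region if its start does, so part of a window can lie outside the peaks. The following pair is shown because both windows hold the RUNX core TGTGGT, which is in capitals on either strand. The Ltbp1 window (chr17:75178531-75178830, plus strand) lies 173 kb inside the gene for a protein that stores latent TGF-beta in the matrix. The region over it measured 814 bp in replicate 1 and 862 bp in replicate 2, and the window has 2 RUNX cores. The Rarg window (chr15:102246451-102246750, minus strand) lies 11 kb inside the gene for retinoic acid receptor gamma. That region measured 969 bp in replicate 1 and 392 bp in replicate 2, and the window has 1 RUNX core. The Rarg start lay 553 bp from the midpoint of the replicate 1 peak, so only the replicate 2 peak covered it.
Ltbp1: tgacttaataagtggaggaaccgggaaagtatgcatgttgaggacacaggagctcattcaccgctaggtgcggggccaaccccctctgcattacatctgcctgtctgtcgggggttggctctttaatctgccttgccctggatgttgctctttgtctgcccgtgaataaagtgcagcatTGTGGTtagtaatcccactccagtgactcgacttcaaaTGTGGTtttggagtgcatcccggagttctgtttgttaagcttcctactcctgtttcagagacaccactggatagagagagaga
Rarg: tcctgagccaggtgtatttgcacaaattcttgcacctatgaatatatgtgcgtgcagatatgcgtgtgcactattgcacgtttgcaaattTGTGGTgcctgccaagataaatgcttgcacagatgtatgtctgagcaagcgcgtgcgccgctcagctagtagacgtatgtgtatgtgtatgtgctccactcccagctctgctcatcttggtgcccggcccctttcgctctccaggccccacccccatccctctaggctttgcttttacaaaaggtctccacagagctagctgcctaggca

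A further 3 windows are shown because they hold a partner motif and no TGTGGT. Capitals mark the AP-1 site TGANTCA in Cald1 and the TEAD site GGAATG in Slc20a1 and Runx1. The Cald1 window (chr6:34709194-34709493, plus strand) lies 111 kb inside the gene for caldesmon, an actin-binding protein, under a region of 674 bp in replicate 1 and 417 bp in replicate 2. The Slc20a1 window (chr2:129206846-129207145, plus strand) lies 8.32 kb inside the gene for a phosphate transporter, under a region of 431 and 527 bp, and has 3 TEAD sites. The Runx1 window (chr16:92697280-92697579, minus strand) lies 129 kb inside the gene for a close relative of RUNX2, under a region of 1073 and 882 bp. It has 35 CG dinucleotides, against 7 in the Ltbp1 window and 5 in the Cald1 window.
Cald1: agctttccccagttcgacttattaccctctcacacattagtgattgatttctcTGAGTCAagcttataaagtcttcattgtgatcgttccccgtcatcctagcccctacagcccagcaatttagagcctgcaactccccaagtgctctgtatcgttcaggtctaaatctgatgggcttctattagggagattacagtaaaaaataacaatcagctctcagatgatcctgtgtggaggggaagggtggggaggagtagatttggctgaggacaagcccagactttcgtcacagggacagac
Slc20a1: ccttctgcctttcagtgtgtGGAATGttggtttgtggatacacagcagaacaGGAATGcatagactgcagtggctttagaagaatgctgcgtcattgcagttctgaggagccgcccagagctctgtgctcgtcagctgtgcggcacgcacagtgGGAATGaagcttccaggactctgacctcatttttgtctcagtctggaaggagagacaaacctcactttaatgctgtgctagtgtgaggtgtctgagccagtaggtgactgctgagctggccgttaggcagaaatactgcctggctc
Runx1: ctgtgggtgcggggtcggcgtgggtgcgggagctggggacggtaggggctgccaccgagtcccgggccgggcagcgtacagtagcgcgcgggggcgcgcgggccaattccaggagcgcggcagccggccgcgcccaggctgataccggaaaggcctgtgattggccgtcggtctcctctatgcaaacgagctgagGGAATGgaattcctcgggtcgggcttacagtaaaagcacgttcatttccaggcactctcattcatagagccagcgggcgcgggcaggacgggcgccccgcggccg

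Annotated starts lay under a small part of these regions. Of the 5577 on chromosomes for which the promoter table holds entries, 463 (8.3%, 7.61 to 9.06) covered at least 1 start of the table and 5114 covered none. The table lacks some coding genes, so this share is a lower bound. Of the 4516 regions in 1 coding gene that has an entry, 459 (10.2%, 9.32 to 11.08) covered a start. Those over a start were wider, with a median of 543 bp in replicate 1 and 547 bp in replicate 2, against 459 and 461 bp for the rest. A wider region covers a start more readily, so part of this difference is set by the grouping. The regions over a start held 509 starts of 440 genes, and 502 of these starts belonged to the gene that held the region. Seen from the starts, 532 of 3627 (14.7%, 13.55 to 15.86) that lay inside a coding gene and over 1 kb from any gene end were covered by a shared region of any class, against 6007 of 26860 (22.4%, 21.87 to 22.87) at gene ends. Egr2, an early response transcription factor, had 4 starts under a single region of 995 bp in replicate 1 and 920 bp in replicate 2. Other genes of the lists below with a covered inner start were Hdac4 and Mef2a, which encode a histone deacetylase and one of the factors it represses, the Wnt feedback inhibitor Axin2, the myosin kinase Mylk, and Nr4a1, an orphan nuclear receptor of the early response.

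Windows under these regions were rich in CG dinucleotides, and fewer of them held the RUNX core TGTGGT than inner windows under no shared region. All motifs were searched on both strands, each on its own. TGTGGT was present in 66 of 509 windows (13.0%, 10.32 to 16.16), against 548 of 3095 inner windows under no shared region (17.7%, 16.4 to 19.09) and 16.7% of all 31396 promoter windows (16.28 to 17.11). The related core TGCGGT, which contains a CG, was present in 51 of 509 windows (95% interval 7.7% to 12.94%), against 5.3% (4.56 to 6.14) of inner windows under no shared region and 6.46% of all windows. Base composition moved with these shares: the median window under a region had 20 CG dinucleotides and 60.0% GC, against 6 and 52.7% in inner windows under no shared region.

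Split by CG content, the TGTGGT shares of windows under a region and under none had overlapping intervals. With fewer than 10 CG dinucleotides, 24 of 87 windows under a region (27.6%, 19.29 to 37.77) held TGTGGT, against 21.4% (19.71 to 23.27) of inner windows under none. With 10 or more, the shares were 9.95% (7.45 to 13.18) and 10.5% (8.8 to 12.51). The AP-1 site TGANTCA was present in 8.64% (6.5 to 11.41) of all windows under a region, 7.66% (6.77 to 8.65) of inner windows under none and 7.84% of all windows, with overlapping intervals. Split by CG content, a choice made after the data were seen, it was present in 6.87% (4.83 to 9.7) of the CG-rich windows under a region, against 3.41% (2.47 to 4.68) of those under none, 3.85% (3.37 to 4.38) of CG-rich windows under shared regions at gene ends and 3.83% of all CG-rich windows. In the CG-poor windows it was present in 17.2% (10.74 to 26.52), against 9.86% (8.64 to 11.23). These intervals do not overlap in the CG-rich windows, where the bounds of 4.83 and 4.68 are close, and overlap in the CG-poor ones. The 509 windows under a region came from 440 genes and some share bases, which none of the intervals for motifs cover. AP-1 sites were not counted with 1 window a gene. The TEAD site GGAATG was present in 13.8% of windows under a region and 16.5% of inner windows under none, again with overlapping intervals. Motifs typical of proximal promoters were more frequent under these regions than in inner windows under none. The cyclic AMP response element TGACGTCA was in 3.93% against 0.969%, the E-box CACGTG in 51 of 509 windows against 5.04%, CCAAT in 41.7% against 33.6% and the GC box GGGCGG in 59.9% against 30.8%, each without overlap of the intervals and without a split by CG content. The same motifs were in 1.83%, 7.14%, 37.3% and 36.0% of all windows. Under shared regions at gene ends the shares were 4.78%, 11.2%, 44.8% and 69.9%, and TGTGGT was in 12.8% there against 17.6% of gene-end windows under none. Before a split by CG content, windows under regions at gene ends and inside genes thus differed from uncovered windows in the same directions for these 5 motifs. With fewer than 10 CG dinucleotides, 28.0% (24.01 to 32.35) of gene-end windows under a shared region held TGTGGT, against 21.2% (20.55 to 21.9) under none. With 10 or more, the gene-end shares were 11.6% (10.76 to 12.44) and 10.1% (9.37 to 10.82). The lower TGTGGT share at covered gene ends was thus not seen within either CG class. A match describes the letters of a window and does not show binding, and the 5114 regions over no start were not searched. Some windows lay only partly under the region over their start, so a match there need not lie under a peak.

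At the 5766 regions the peaks of the replicates lay close together and had almost the same median width. The median width was 466 bp in replicate 1 and 467 bp in replicate 2, below the 536.5 and 544 bp of shared regions at gene ends and close to the 467 and 466 bp of those outside genes. Peaks of at least 1 kb were found at 278 regions (4.82%, 4.3 to 5.41) in replicate 1 and 294 (5.1%, 4.56 to 5.7) in replicate 2, and 147 regions reached 1 kb in both. The midpoints of the replicates' widest peaks lay a median of 80 bp apart. Neither replicate was wider as a rule, with 2884 regions wider in replicate 2, 2859 wider in replicate 1 and 23 equal. At 854 regions (14.8%) the widths differed by at least 2-fold, so the width of a single region is a rough measure. In 72.8% (71.61 to 73.9) the widest peaks covered each other by at least 50%, against 79.6% (78.58 to 80.5) at gene ends and 73.0% (71.69 to 74.34) outside genes.

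Peaks inside gene bodies were found in the other replicate less often than peaks at gene ends. Gene bodies held 9298 peaks of replicate 1 and 9557 of replicate 2, or 35.3% and 35.7% of the peaks on chromosomes 1 to 19 (mean 35.5% ± 0.28, SD, n = 2). Of these, 62.6% in replicate 1 and 60.9% in replicate 2 overlapped a peak of the other replicate, against 81.5% and 81.2% at gene ends. The difference was −18.89 percentage points (95% interval −20.17 to −17.6) in replicate 1, with an adjusted p of 5.7e-174, and −20.3 points (−21.58 to −19.01) in replicate 2, with an adjusted p of 2.8e-199 (two-sided Fisher's exact test within each replicate, Benjamini-Hochberg over 4 comparisons). Against peaks outside genes, at 61.6% and 60.6%, no difference passed the threshold of 0.05. By the same exact test it was 0.99 points (−0.51 to 2.5, adjusted p = 0.26) in replicate 1 and 0.33 points (−1.16 to 1.83, adjusted p = 0.67) in replicate 2. The test counts each peak as independent, and both replicates compare the same pair of lists.

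Narrow peaks were more common inside genes than at gene ends, and the difference in overlap was seen at every width. The narrowest quintile of the replicate 1 list, with widths of 163 to 236 bp, held 22.9% of its gene-body peaks and 12.3% of its gene-end peaks. In that quintile 33.1% (31.18 to 35.17) of gene-body peaks and 47.6% (44.63 to 50.68) of gene-end peaks were found in replicate 2. In the widest quintile the shares were 95.4% (94.26 to 96.36) and 97.7% (97.01 to 98.23). With only peaks wider than the list's median the difference was −7.64 points in replicate 1 (adjusted p = 1.0e-33) and −8.15 points in replicate 2 (adjusted p = 2.9e-37, both by Fisher's exact test). Replicate 2 gave 31.3% and 44.7% in its narrowest quintile and 95.4% and 97.4% in its widest.

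**Figure D1:**
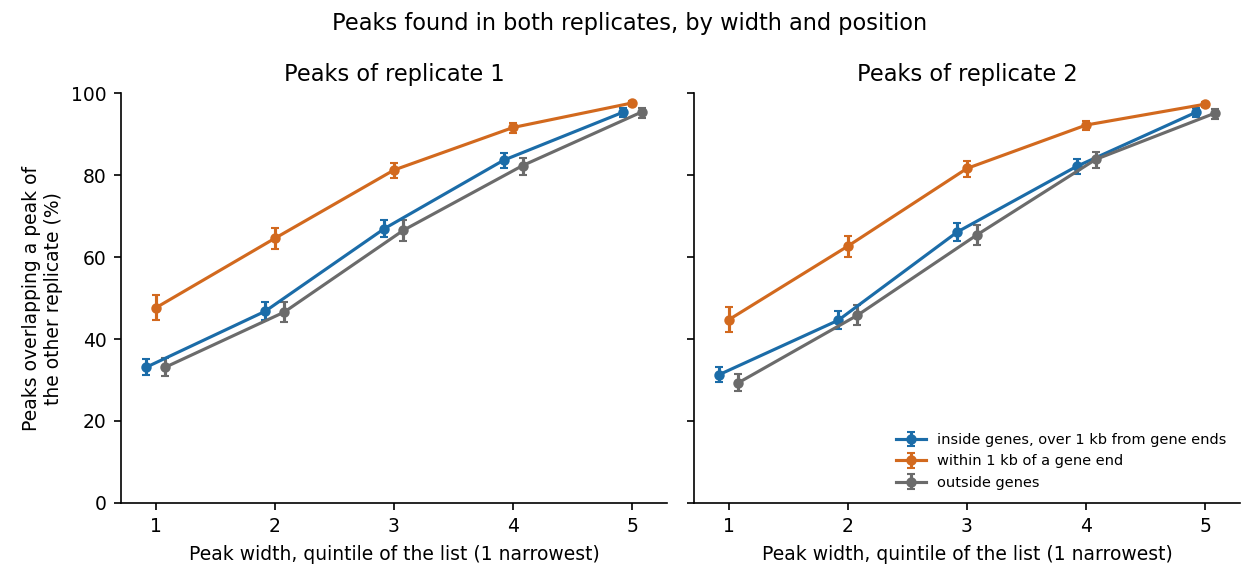
Share of peaks that overlapped a peak of the other replicate (%, vertical axis) in quintiles of peak width from narrowest to widest (horizontal axis), with 95% Wilson intervals, for peaks of replicate 1 (left) and replicate 2 (right). Peaks inside gene bodies (blue) follow those outside genes (grey) and lie below those within 1 kb of a gene end (orange) in every quintile, from 33.1% against 47.6% to 95.4% against 97.7% in replicate 1.

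The widest regions inside genes lay in genes of varied function. By the mean rank of width over both replicates, the first lay in Tnrc18, a gene for a chromatin protein, and measured 2052 bp in replicate 1 and 2137 bp in replicate 2. It was followed by regions in Itga2b, a platelet integrin (1822 and 1884 bp), in Dlgap1, a synaptic scaffold (1995 and 1711 bp), and in Kdm6b, a histone H3 lysine demethylase (1871 and 1675 bp). The others of the first 10 lay in Nav2, Gxylt2, Rbpj, Tm4sf1, Kremen1 and Tef. Rbpj encodes the DNA-binding effector of Notch (1791 and 1568 bp) and Kremen1 a receptor for the Wnt inhibitor Dkk1 (1638 and 1566 bp). Of these 10, the Tef region covered an alternative start, at 8.74 kb from the start of the gene, while Kdm6b and Kremen1 have no entry in the promoter table. At Tnrc18 the position of the region lay 1.03 kb from the gene's own start, and the replicate 2 peak ran past that start.

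Distances to the nearest gene end had a median of 12990 bp, with quartiles of 4840 and 30314 bp and a maximum of 523124 bp. No gap in distance separates the regions on either side of the limit of 1 kb. The nearest regions inside it lay 1002 bp from a gene end in Iba57 (688 and 626 bp wide) and 1003 bp in Rhobtb2. The nearest excluded ones lay at 1000 bp in Gas2l3 (518 and 1143 bp wide) and at 999 bp in Col4a1. Density was 5.86 regions per Mb of protein-coding gene span over 984 Mb, and ranged from 4.08 on chromosome 14 to 9.3 on chromosome 19.

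The regions were spread over 3383 of 20665 protein-coding genes on chromosomes 1 to 19, a background of 16.4%. Of these host genes, 2178 held 1 region, 658 held 2 and 547 held 3 or more, and 188 held at least 5. Host genes were long, with a median of 67.8 kb against 13.6 kb for the other coding genes. Most regions, 5708, lay in 1 coding gene and 58 in several. The nearest coding gene end belonged to the host for 5289 regions (91.7%, 90.99 to 92.41) and to another gene for 477, so for these the host is not the nearest gene by this measure.

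The share of genes with a region was larger in longer classes of genes up to 500 kb, and the density of regions up to 200 kb. Part of this was set by the rule, which leaves out 1 kb at each gene end. Only the 18374 coding genes over 2 kb could hold a region, and 18.4% of them did. Density was taken over full gene length, which lowers it most in short genes. Among genes under 10 kb, 1.73% (1.46 to 2.05) held a region. The share was 18% (16.96 to 19.13) at 20 to 50 kb, 56.5% (52.89 to 60.07) at 200 to 500 kb and 51.4% (44.76 to 57.97) over 500 kb. Density was 4.15 regions per Mb under 10 kb and between 6.65 and 7.62 in the 4 classes from 10 to 200 kb. It was 5.77 per Mb at 200 to 500 kb and 2.19 in genes over 500 kb. Among the longest genes with no region were Cntnap2, Lsamp, Lrp1b, Csmd1, Nrxn3, Pcdh15, Gpc5, Tenm3 and Cntn5, of 2240 to 1270 kb, most of which encode proteins of neuronal membranes and synapses.

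**Figure D2:**
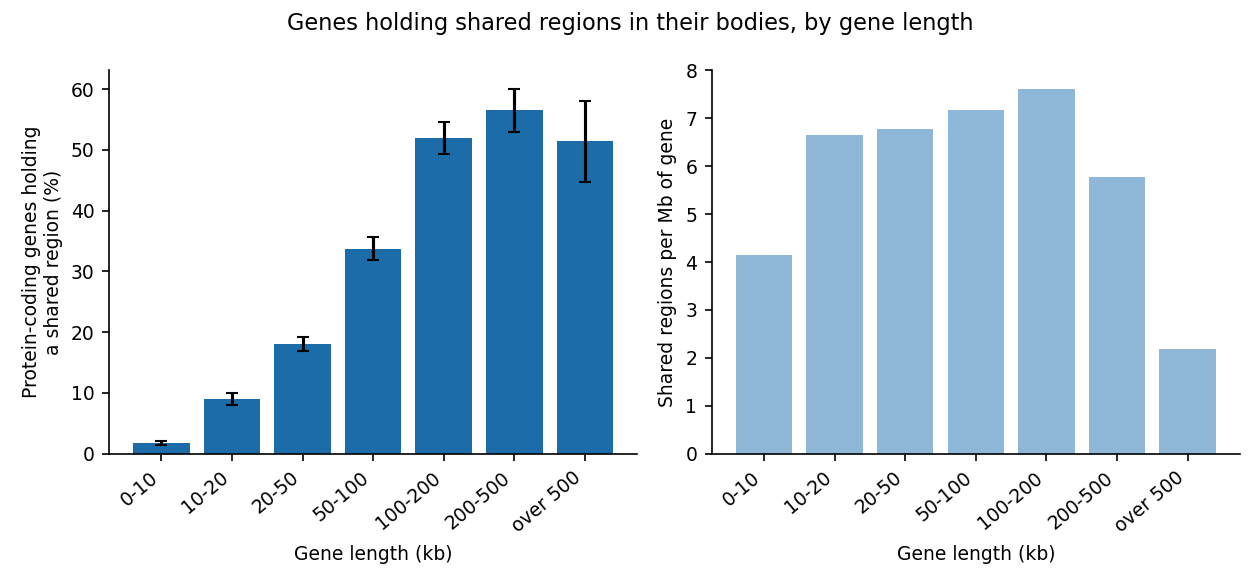
Share of protein-coding genes with at least 1 shared region in the gene body (%, left, bars with 95% Wilson intervals) and shared regions per Mb of gene (right), by gene length class in kb. The share rises from 1.73% under 10 kb to 56.5% at 200 to 500 kb, and the density is highest at 7.62 per Mb in genes of 100 to 200 kb and lowest at 2.19 per Mb over 500 kb. Density is per full gene length, including the 1 kb at each end where no region was counted.

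The 12 genes with the most regions held 9 to 15 each. Pakap, a locus for paralemmin and an A-kinase anchor protein, held 15 regions along 408 kb of its 463 kb, with widths of 172 to 734 bp in replicate 1 and 182 to 871 bp in replicate 2. Dlgap2, a synaptic scaffold, held 13. Tns3, which encodes tensin 3, a link between integrins and actin, held 12 in 233 kb. Its regions formed separate groups, with 4 of them between 213 and 225 kb from the start of the gene, the widest being 966 and 793 bp, and 1 at 1.07 kb from the start (447 and 219 bp). Foxp1, a forkhead factor, held 11, and the widest of them (1028 and 1175 bp) lay 363 kb from the start. From all peaks of 1 replicate, shared or not, Foxp1 held 24 without replicate 1 and 19 without replicate 2, and Ank3, the gene for ankyrin G, held 20 without replicate 1, against 11 shared regions each.

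Syn3 shows how a host and a neighbour can differ. It encodes a synapsin, a protein of synaptic vesicles, and held 12 regions. For 10 of these the nearest coding gene end was that of a gene that did not hold the region. It was Timp3, a secreted inhibitor of metalloproteinases, for 6 and Fbxo7, a ubiquitin ligase subunit, for 4. The rest of the Syn3 regions lay inside Timp3 too and were nearest to its ends. In Tiam2, a Rac exchange factor, the nearest end was that of a gene not holding the region for 6 of 10 regions. The other genes among the first 12 were Ank3 (ankyrin G), Ctif, Dnm3 (a dynamin), Glis3 (a zinc-finger factor), Apbb2 and the anchor protein gene Akap13, with 11, 11, 11, 11, 10 and 9 regions.

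**Figure D3:**
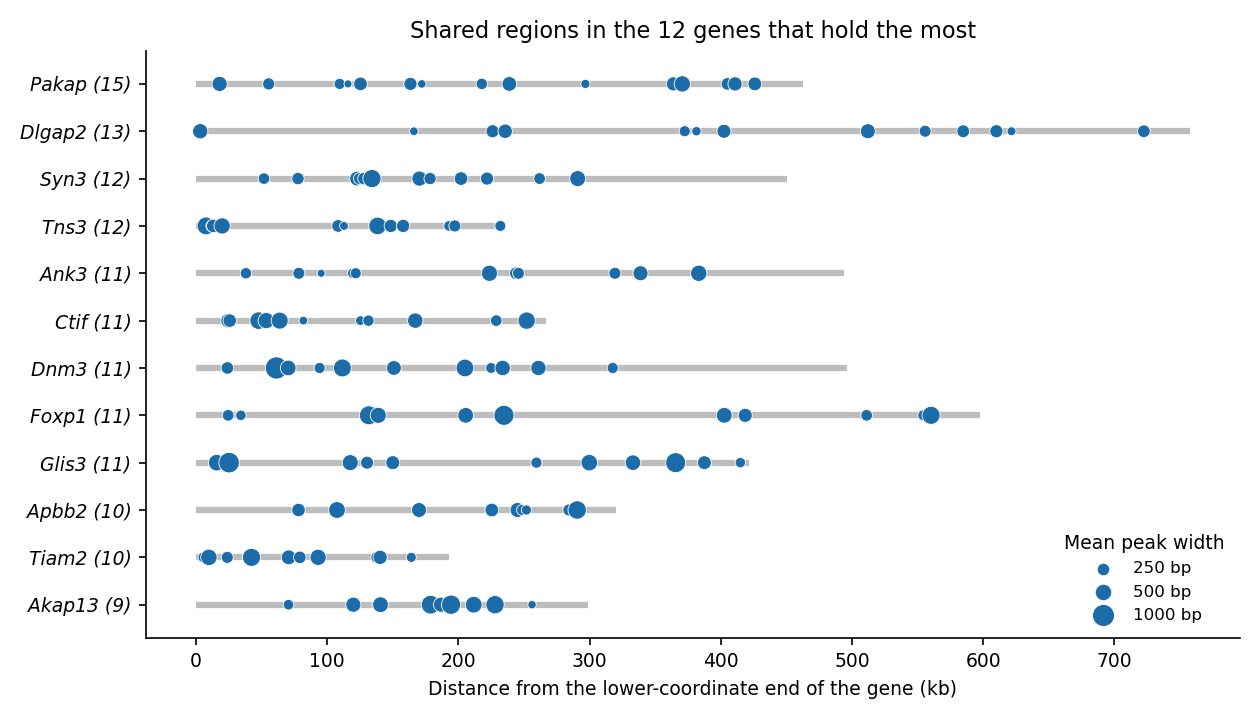
Positions of the shared regions (blue points) along the 12 protein-coding genes that hold the most (grey bars, number of regions in parentheses), as distance in kb from the lower-coordinate end of each gene, with point area in proportion to mean peak width over both replicates. Regions are spread along most genes, with closer groups in Syn3, Tns3 and Apbb2.

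Per length, the densest genes with at least 3 regions were Kdm6b with 1.37 regions per 10 kb, Tgm2 with 1.33, Cyb5r3 with 1.31, Slc7a5 with 1.13, Ptges with 0.963, Wdr1 with 0.831, Prrx2 with 0.829 and Plec with 0.828. They include the matrix crosslinking enzyme transglutaminase 2 (Tgm2), prostaglandin E synthase (Ptges), a paired-type homeodomain factor of skeletal mesenchyme (Prrx2) and the cytoskeletal linker plectin (Plec). The regions of Tgm2 were 259 to 516 bp wide in replicate 1 and 169 to 422 bp in replicate 2. Those of Plec reached 1578 bp in replicate 1 and 1070 bp in replicate 2.

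Runx2 itself held 5 regions, all narrower than 700 bp in both replicates. From 314 to 76.9 kb from the start of the gene, they measured 593, 203, 406, 318 and 443 bp in replicate 1 and 557, 667, 486, 565 and 228 bp in replicate 2. The second was 203 bp in replicate 1 and 667 bp in replicate 2, and only the first and the third differed by less than 100 bp. The first, at 44500263 to 44500855 on chromosome 17, lay 4572 bp inside the end of Runx2. For the last 3 the nearest coding gene end was that of Supt3, which overlaps Runx2. None of the 5 covered an annotated start. The count was 3 with reciprocal overlap of at least 50%, 2 with wide peaks only and 8 from all peaks without replicate 1. With 0.157 regions per 10 kb, Runx2 was less dense than Runx1, at 0.267, whose 6 regions were 511 to 1076 bp wide in replicate 1 and 585 to 984 bp in replicate 2. Of 729 genes of this length class, 56.5% held at least 1 region.

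Regions of one gene were usually far apart. Of the 5708 in a single coding gene, 3564 shared it with another region, and the median gap between neighbours was 23.7 kb, with quartiles of 10.3 and 50.8 kb. Another region of the same gene lay within 5 kb for 324 (5.68%, 5.11 to 6.31) and within 10 kb for 1084 (19%). Runs of 3 or more with gaps of at most 5 kb numbered 9. The longest had 4 regions in 7.88 kb of Apbb2, whose product is an adaptor that binds the amyloid precursor protein. Their widths were 194, 651, 387 and 325 bp in replicate 1 and 344, 596, 263 and 241 bp in replicate 2.

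Within their genes the regions lay more often in the part nearer the start. Strand was known for 16457 of the 20665 coding genes, from the promoter table, and for the hosts of 4516 regions in 1 coding gene. Of these regions, 2584 (57.2%, 55.77 to 58.66) were nearer the start than the end, and 54.3% (52.72 to 55.78) of the 4057 that covered no annotated start. The first decile of the gene body, with 1 kb left out at each end, held 14.0% and the last decile 7.88%. Between 1 and 5 kb from the start lay 589 regions (13.0%), against 259 (5.74%) between 1 and 5 kb from the end.

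The lean towards the start was found in hosts up to 200 kb and not in longer ones. The part nearer the start was 75.2% (66.01 to 82.64) in hosts under 10 kb, 60.8% (57.41 to 64.11) at 20 to 50 kb, 56.1% (53.21 to 59.02) at 100 to 200 kb, 50.5% (47.36 to 53.68) at 200 to 500 kb and 46.9% (41.31 to 52.65) over 500 kb. Col1a2, the gene for a chain of type I collagen, is an example of a region close to the start. Its wider region, 918 bp in replicate 1 and 1095 bp in replicate 2, lay 1.8 kb inside the gene, and the other, 482 and 224 bp, lay 25.5 kb inside. Regions of one gene share it and are not independent, which the intervals do not cover. Among the 1695 genes with exactly 1 region, the part nearer the start was 63.2% (60.92 to 65.51).

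**Figure D4:**
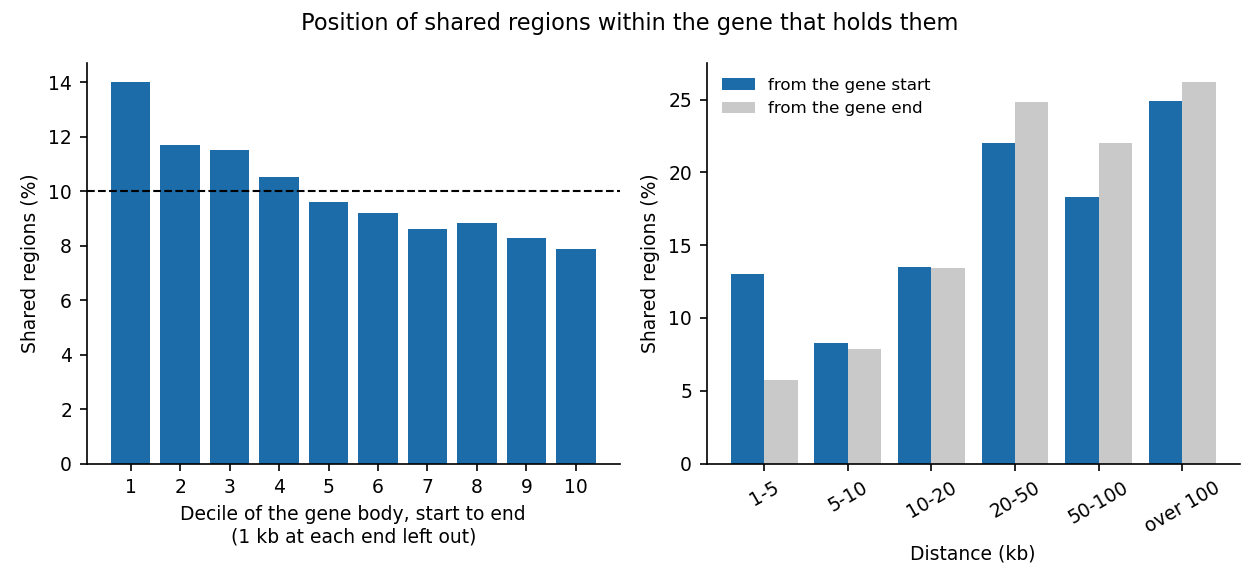
Left, share of shared regions (%) in each decile of the gene body from start to end, with a dashed line at 10%. Right, share of shared regions (%) by distance in kb from the start (blue) and from the end (grey) of the gene that holds them. The first decile holds 14.0% and the last 7.88%, and 13.0% lie 1 to 5 kb from the start against 5.74% from the end.

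Long host genes also had a shared region at their own start more often than genes of like length without an inner region. Over all genes with known strand the shares were nearly equal, 33.5% (31.74 to 35.32) with an inner region and 33.0% (32.18 to 33.75) without. At 200 to 500 kb they were 31.2% (26.34 to 36.54) and 9.38% (6.21 to 13.91), and over 500 kb 16.1% (9.83 to 25.22) and 1.22% (0.22 to 6.59). Below 50 kb the order was turned, with 33.0% (29.61 to 36.57) and 42.8% (41.07 to 44.5) at 20 to 50 kb. These are counts of genes, without a test.

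Gene lists were chosen with earlier results of these data known, so part of any excess or shortfall below may come from that choice. Signalling, adhesion, matrix and transcription factor genes that act in osteoblasts were read as 10 lists. Of their 323 genes, 148 (45.8%, 40.47 to 51.27) held at least 1 region, beside 91.6 if each gene had the share of its length class and 16.4% of all coding genes. Over lists of neuron, muscle, blood and liver markers, 19 of 87 genes (21.8%, 14.45 to 31.61) did, beside 29.0 by length class. These counts describe the lists and no test was made of them. A listed gene without a region here may still have a shared region within 1 kb of its ends, which was not counted. Genes of 2 kb or less could hold none by the rule.

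Among transcription factors and cofactors of osteoblasts, 20 of 38 genes held a region, beside 12.7 by length class. After Foxp1 came Runx1, Tcf4 (an E protein) and Hdac4 with 6 each, and Nfatc2 and Hdac9 with 5. The Runx1 regions included one of 1076 and 984 bp and one of 1044 and 926 bp. Cbfb, the partner of RUNX2, held 1 region of 487 bp in replicate 1 and 243 bp in replicate 2. Sp7, Dlx5, Msx2 and Twist1, which act in osteoblast differentiation, held none.

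In TGF-beta and BMP signalling 14 of 35 genes held a region, beside 11.4 by length class. Ltbp1 held 8, the widest of 1217 and 1325 bp. Tgfbr3, the co-receptor betaglycan, held 6, with one of 1487 and 1291 bp. The transducer Smad3 held 5, of which the region 79.9 kb from the start was 885 and 828 bp wide and the other 4 were 234 to 570 bp wide in replicate 1. Ltbp2 held 3, with one of 1339 and 1273 bp. Receptor genes Tgfbr2 and Acvr1 held 2 each, while Tgfbr1, Bmpr2 and the BMP ligand genes Bmp2, Bmp4, Bmp6 and Bmp7 held none.

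In Wnt signalling 15 of 38 genes held a region, beside 10.7 by length class. The nuclear effectors Tcf7l2 and Tcf7l1 held 5 each, with a widest region of 1248 and 964 bp in Tcf7l2. The co-receptor gene Lrp6 and the ubiquitin ligase gene Znrf3, which removes Wnt receptors, held 4 each. None of the 6 Frizzled receptor genes in the list and none of the Dvl genes held one. Ryk, a Wnt receptor with a kinase-like domain, held 1 of 1195 and 1155 bp.

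Growth factor genes and their receptors held regions in 18 of 33 cases, beside 8.99 by length class. Igf1r, the IGF1 receptor, held 4 of 510 to 730 bp in replicate 1 and 315 to 901 bp in replicate 2. Fgfr1, Pdgfrb, Pdgfc, Egfr and Met held 2 each, and Pth1r, the parathyroid hormone receptor, held 1 of 483 and 623 bp. Nuclear receptors and related genes had 13 hosts of 26, beside 9.31. Rxra, Thrb and Rarb held 3 each, and the vitamin D receptor gene Vdr held 1 of 357 and 424 bp.

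Adhesion and cytoskeletal genes held many regions. In the list of integrins and focal adhesion proteins 18 of 36 genes did, beside 12.5, led after Tns3 by Lpp with 9 and by Itgb5 (integrin beta 5) and Bcar3 with 6 each. For genes of the actin cytoskeleton and of YAP and TEAD it was 22 of 41, beside 10.5. Cald1 held 9, the widest of 994 and 956 bp at 11.9 kb from the start. Wwtr1, which encodes TAZ, held 4, and Tead1 and Mrtfa 3 each. Amotl1, whose product binds YAP, held 3, with one of 1159 and 1252 bp. Yap1 and its target genes Ccn1 and Ccn2 held none.

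Genes of the bone matrix and its mineralisation, with a median length of 13.5 kb, held 12 regions in all. In this list 8 of 28 genes held one, beside 4.03 by length class, and 5 did with a limit of 3 kb from gene ends. Col1a2, the phosphate transporter gene Slc20a2, Dmp1 and the matrix protein gene Sparc held 2 each. The Sparc regions were nearly equal in both replicates, 501 to 578 bp in replicate 1 and 507 to 582 bp in replicate 2. A Dmp1 region was 1124 bp in replicate 1 and 516 bp in replicate 2. Col1a1, Spp1, Ibsp, Bglap and Alpl held none, where short genes had little or no room for a region by the rule. Among other collagens and their processing enzymes 16 of 30 held a region, beside 10.7. The prolyl hydroxylase gene P3h2 held 5, and Col27a1, Col24a1 and Col4a2 held 4 each, with one of 1431 and 1701 bp in Col27a1.

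Of the AP-1 and early response genes, with a median length of 5.16 kb, 4 of 18 held a region, beside 0.709 by length class. Nr4a1 held 2, and Fosb, Egr2 and Jund held 1 each. With a limit of 3 kb from gene ends in place of 1 kb, 1 gene of this list held a region. The Fosb region was 1144 and 1182 bp wide and lay 2.11 kb from the start of a gene of 7.42 kb. The Jund region was 723 and 762 bp wide and lay 1.02 kb inside a gene of 2.88 kb, just past the limit that separates gene bodies from gene ends. Fos, Jun, Junb, Atf3 and Egr1 held none. In genes this short the rule leaves little or no room for a region, and regions at their ends were not counted.

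Markers of other cell types were counted in the same way. Expression was not measured, so these counts do not check the identity of the cells. None of 20 liver genes held a region (0%, with an upper Wilson bound of 16.11%), beside 3.12 by length class, and 1 held a peak of replicate 2 when all peaks of that replicate were counted. Neuron genes had 8 hosts of 25, beside 12.9, with 13 regions in Dlgap2 and 5 in Macrod2. Of the 5 in Macrod2, 3 were nearest to Flrt3. Skeletal muscle genes had 5 of 20, beside 6.44, among them Nrap and Ank1 with 2 each, and blood cell genes had 6 of 22, beside 6.46, among them Skap1, Inpp5d and Fli1 with 2 each. Chondrocyte and adipocyte genes had 4 of 20, beside 3.99, and 2 with a limit of 3 kb. Sox5, a factor of the chondrocyte lineage, held 9 regions in 954 kb, of 268 to 748 bp in replicate 1 and 317 to 953 bp in replicate 2. Sox6 held 2 and Sox9 none.

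**Figure D5:**
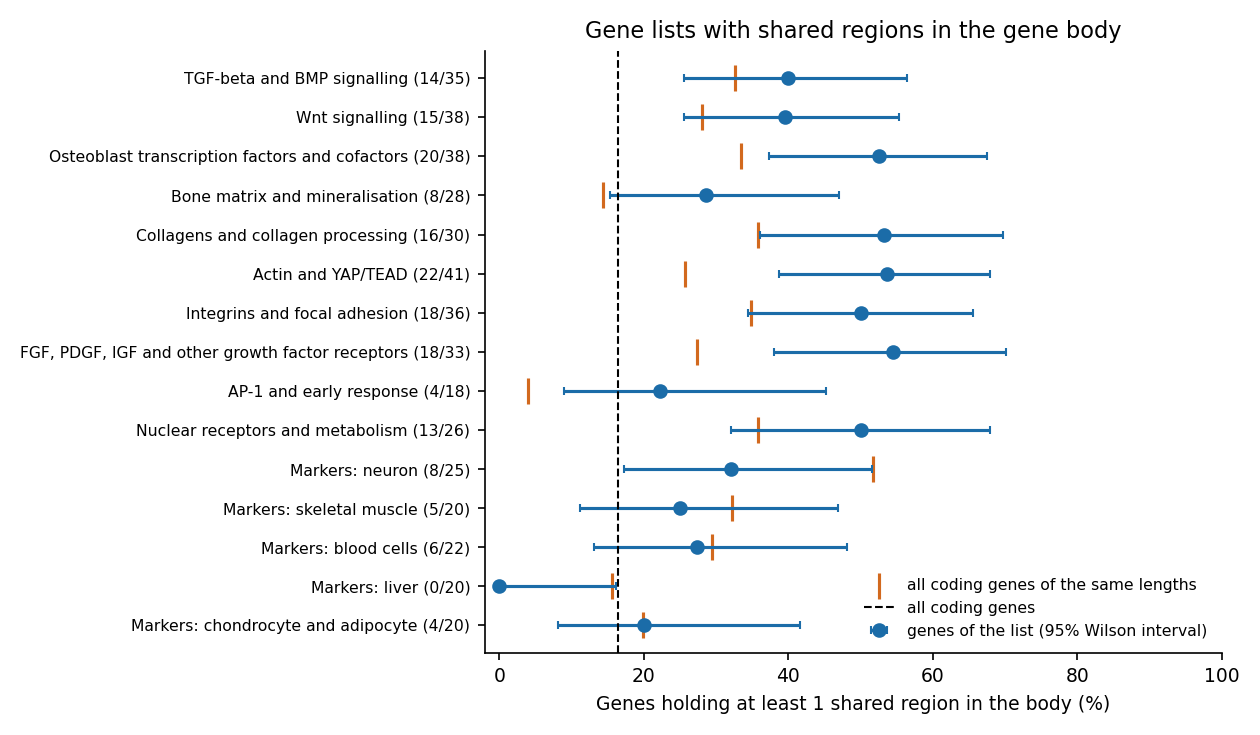
Share of genes with at least 1 shared region in the gene body (%, horizontal axis) in each of 15 gene lists (number of hosts and genes in parentheses), as points with 95% Wilson intervals, beside the share expected from the length classes of the same genes (orange marks) and the 16.4% of all coding genes (dashed line). Points lie to the right of the orange marks in the 10 pathway and matrix lists and to the left in the neuron, muscle, blood and liver lists. The lists were chosen with earlier results of these data known.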

How the data were processed

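RUNX2 CUT&Tag was analysed from 2 replicate libraries of 1 group. The authors deposited a list of peaks for each replicate on its own, with position and width in bp and no signal, score or p-value, and this is the only unit used here. Per the submitters' processing notes, fastp 0.19.6, Bowtie2 and deepTools were used with GRCm38 (mm10). For the peak caller and its settings, nothing is stated in the labels or headers read here, and depth is unknown. Gene spans, promoter windows and strand came from RefSeq (GRCm38.p6), where 16457 of 20665 coding genes matched a promoter entry that gives strand. No genome or exon annotation was used here, so the planned motif search around region midpoints and the shares in exons were not run. Annotated promoter windows replaced them, a choice made after the data were seen, as were the split at 10 CG dinucleotides and the positions of regions over no start and of genes with 1 region.

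Regions were merged and classed in Python 3.11.15 with pandas 2.3.3, and the steps were checked on simulated peaks. Fisher's exact tests used scipy 1.17.1 with Benjamini-Hochberg adjustment. Values expected by length class sum, over the genes of a list, the share of coding genes with a region in 7 classes of gene length. Genes were named by rule: Runx2, the 12 hosts with the most regions, the 10 widest regions, the 8 densest hosts with at least 3 regions, up to 4 genes with the most regions per list and the 10 longest genes with none. Some genes that this rule selects are not reported here. Genes named beyond this rule, such as list members without a region, were chosen after their values were seen. The regions and lists were chosen with earlier results of these data known. Alternatives tried were a reciprocal overlap of 50%, wide peaks only, replicate 2 midpoints, limits of 500 bp and 3 kb, ends of coding genes only, each replicate alone and regions in exactly 1 gene.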

Additional observations from a re-analysis of the deposited data

How the results depend on the processing

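With only the wider peaks (above the list's median), 2698 regions remained in 1975 host genes, or 29.3% of shared regions and 9.56% of coding genes, and 11 genes of the neuron, muscle, blood and liver lists held one. From all peaks of each replicate alone, 9298 to 9557 regions were counted, or 35.3% to 35.7%, and 22.8% to 22.9% of coding genes were hosts. The share of shared regions was 31.2% with reciprocal overlap, 34.9% with a limit of 500 bp, 27.0% with 3 kb and 33.9% with ends of coding genes only. Hosts were then 13.2%, 18%, 13.5% and 17.0% of coding genes. The part nearer the start was 55.6% with wide peaks, 59.1% with 500 bp and 54.7% with 3 kb. The difference in overlap between gene-body and gene-end peaks shrank to −7.64 and −8.15 percentage points in replicates 1 and 2 with wide peaks, from −18.89 and −20.3, and kept its direction and its side of the threshold. The other main values stayed within 1.5 times for counts, within the interval for shares, or on the same side of the threshold for tests. Of the counts for single lists and genes, 34 under alternatives and 5 with a replicate left out moved by over 1.5 times, and 232 and 67 did not. With a replicate left out these were Foxp1, Ank3, Runx2 and the liver list. With wide peaks, hosts fell to 9 in the TGF-beta and BMP list, 9 in the Wnt list, 5 in the bone matrix list, 14 in the list of actin, YAP and TEAD genes, 8 among nuclear receptors, 5 among neuron genes and 2 among blood genes. Wide peaks also left 7 regions in Pakap, 5 in Dlgap2, 5 in Tns3, 7 in Syn3 and 0 in Tgm2, and reciprocal overlap left 9 in Pakap, 5 in Glis3, 1 in Cyb5r3 and 1 in Prrx2. With 1 window a gene, TGTGGT was in 13.6% of windows under a region. The planned motif search in whole merged regions was not run, since no genome was used here. No paired analysis was possible because the series has 1 group. Without read numbers, regions missed for lack of depth cannot be told apart from unoccupied ones.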

Other observations

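The widest regions over inner starts, besides the one in Tef, a clock-controlled bZIP factor, included those at S100a3, a calcium-binding protein (1328 bp in replicate 1 and 1289 bp in replicate 2), the heterochromatin protein gene Cbx5 (1221 and 1304 bp, with the start 24.6 kb inside the gene), the amino acid transporter subunit gene Slc3a2 (1214 and 1306 bp), Eprs, a tRNA synthetase (1118 and 1220 bp), Rfx1, a DNA-binding factor (1140 bp in both), and the acetyltransferase gene Kat5 (1182 and 1008 bp, with 2 starts under the region). Starts of Gm28809 inside Cd9 (1146 and 1507 bp), of 4930447F24Rik inside Bsn, a gene for a presynaptic protein (1311 and 1158 bp), and of C87436 (1101 and 1145 bp) were among them too. The window at the Slc3a2 start held 1 TGTGGT, and those of Tef, S100a3, Cbx5, Eprs and Rfx1 held none. Those of Slc3a2 and Cbx5 lay only partly under their regions. In the window of Mylk, under a region of 321 and 191 bp, 2 TGTGGT, 1 TGANTCA and 1 GGAATG were found. These genes were chosen after their values were seen.

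A region on chromosome 18 of 351 and 252 bp in replicates 1 and 2, and another of 689 and 815 bp lay each in 24 overlapping coding genes at the protocadherin gamma cluster, which encodes neuronal adhesion proteins from shared last exons. They add hosts to the gene count without adding regions.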
